A study of Mus musculus with 24 samples.

Results

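The 45 genes described here encode proteins that copy DNA and divide the cell. They were taken as a fixed list of gene symbols by function, with earlier results of these data known, so the list is not blind to the data. All 45 were found by Ensembl identifier in each of the 4 deposited tables, which together list 30699 genes. By role they comprise 6 cyclins and cyclin-dependent kinase genes, 2 cell cycle transcription factors, 11 genes of replication licensing, helicase and clamp, 3 of deoxynucleotide supply, 2 of chromosome coat and topology, 4 of the spindle checkpoint and anaphase-promoting complex, 6 of mitotic kinases and their partners, 9 of kinesins, centromere and spindle, and 2 regulators of cytokinesis.

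The study sequenced messenger RNA of white (WAT) and brown adipose tissue (BAT) from C57BL/6 mice. Mice received 2 injections under the skin, at 25 mg/kg, of an oligonucleotide modified with locked nucleic acid, which binds its microRNA tightly. It was directed against miR-224 (antimiR-224) or miR-452 (antimiR-452), or had a scrambled sequence (scramblemiR), the control that every comparison with an inhibitor uses. In each tissue 4 libraries were made with antimiR-224, 4 with antimiR-452 and 4 with scramblemiR, 24 libraries in 6 groups. The labels give neither sex nor age of the mice and name no genetic change. They also do not say whether 1 library stands for 1 mouse, so the spread behind each p-value may be technical.

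A cell enters the cycle when cyclin-dependent kinases free E2F transcription factors, which switch on genes for replication. The MCM helicase is then loaded on DNA and opened, the clamp Pcna tethers the polymerases, and deoxynucleotides are made on demand. Before division FoxM1 and B-Myb complexes switch on cyclin B, the mitotic kinases and the kinesins that build the spindle. Mature adipocytes rarely divide. In fat these genes are known from dividing progenitor, endothelial and immune cells, so that their RNA in whole tissue may come from a small share of the cells. That share was not measured here. In bulk samples such as these, fewer dividing cells and less RNA per dividing cell cannot be told apart.

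Values are normalized reads, reads divided by the size factor of their library, recovered for each library from the deposited group means. Libraries are numbered within a group by descending size factor, and cannot be tied to the titles of the samples. The scramblemiR libraries held 22175430 to 27935908 reads in genes in WAT and 16960694 to 20255777 in BAT. Tissue labels fitted their defining markers: Ucp1, the uncoupling protein of brown fat, had 133, 4.10, 0.776 and 9.33 normalized reads in WAT scramblemiR libraries, against 59027, 90699.6, 176328 and 140648 in BAT. Several libraries carried RNA of other cells. BAT scramblemiR libraries 1 and 2 held the fast muscle myosin Myh4 at 333569 and 367536, against 144 and 312 in libraries 3 and 4. The spermatid protamine Prm2 was at 5014 in WAT scramblemiR library 2 and between 2.62 and 23.8 in the other 3. Medians and counts of members that rest on these libraries are also given without them.

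The 6 members with the highest level per length were replication genes in both tissues. To compare genes, normalized reads were divided by the length of the exons in kilobases (kb), with libraries of both tissues on one scale. Pcna ranked first in each tissue, at 290.5 ± 30.4 reads per kb in WAT and 215 ± 12.7 in BAT scramblemiR libraries (mean ± SD, n = 4 each). The helicase subunit Mcm7 came second in WAT at 168 ± 21.1 and after Cdc45 in BAT, at 81.4 ± 11.7. Mcm4, Mcm3 and Mcm6, subunits of the same ring, followed in WAT at 87.9 ± 15.4, 86.04 ± 13.3 and 74.4 ± 11.7 reads per kb, close together for their spread. In BAT the second rank belonged to Cdc45, the factor that turns the loaded MCM ring into an active helicase, at 91.4 ± 25.2 reads per kb, against 72.4 ± 21.9 in WAT. The lowest was Melk, a kinase of dividing cells, with 6.29 ± 5.94 reads per kb in WAT and 0.229 ± 0.265 in BAT, where 2 of 4 libraries had no read. Above it in WAT came Hmmr, a spindle protein, at 6.42 ± 4.03, and Mcm10, a factor of helicase activation, at 6.50 ± 4.26. Between these and the top 6, means in WAT ran from 8.16 (Ccnb1, cyclin B1) to 58.1 reads per kb (Ccnb2, cyclin B2). Pseudogenes of Pcna, Ccnb1 and Tyms are annotated in the mouse genome, and the sources used here do not give how reads were shared among such copies, so levels of these genes are less certain.

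**Figure D1:**
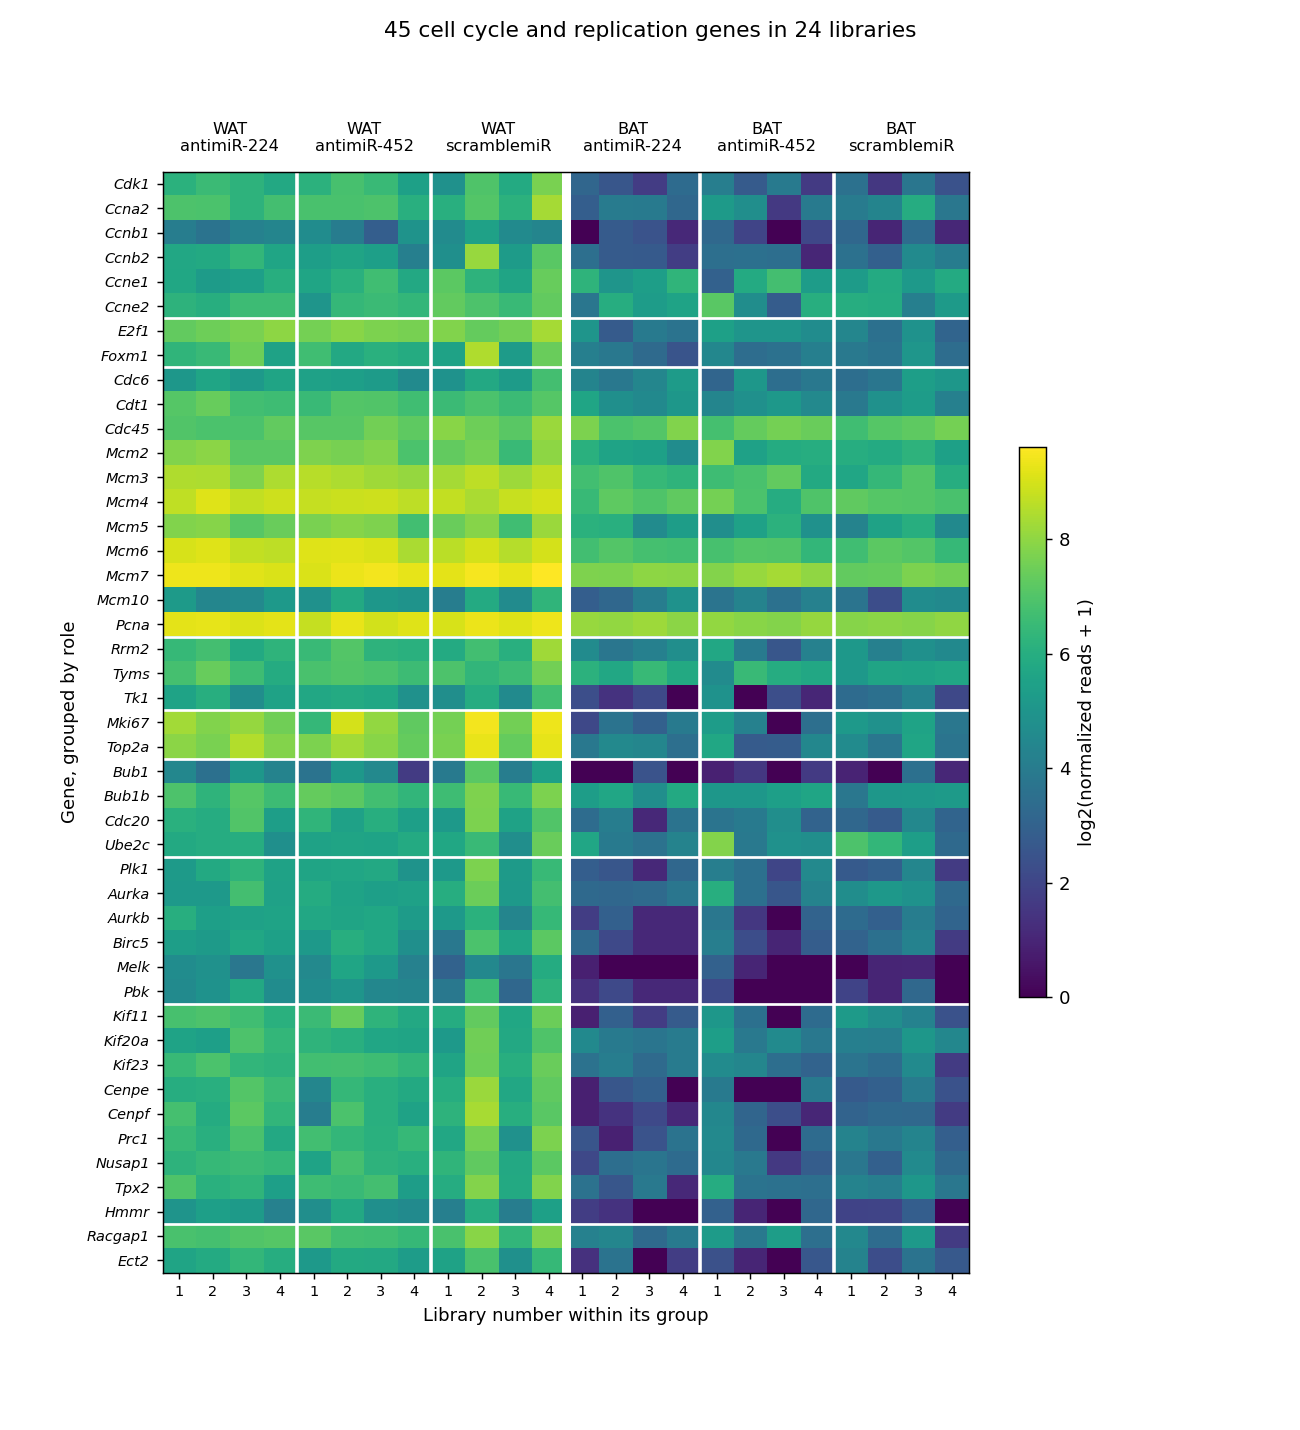
Each row is 1 of the 45 genes, grouped by role, and each column 1 of 24 libraries, with WAT groups left of BAT groups and both inhibitors left of scramblemiR; colour gives log2(normalized reads + 1), with each tissue on the scale of its own tables. Mcm4, Mcm6, Mcm7 and Pcna form bright bands in both tissues, most rows are darker in BAT, and WAT scramblemiR libraries 2 and 4 are brighter than 1 and 3 in most mitotic rows.

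Promoters of the members share short elements, which the choice of genes did not use. RefSeq (GRCm38.p6) gave a promoter for 37 of the 45, and the 250 bases before the start were searched on both strands for the CCAAT box, for cell cycle homology elements (TTTGAA or TTCGAA, bound by the DREAM and B-Myb complexes) and for E2F-type letters (TTCCCGC or TTGGCGC). The CCAAT box on the other strand can overlap the E2F-type letters TTGGCGC, and each motif is then counted. A CCAAT box was found in 28 of 37 members (75.7%), against 34.5% of all 27025 promoters of that length. The homology letters were in 12 members (32.4%), against 17.4% of all promoters, and the E2F-type letters in 7 (18.9%), against 5.71%. By role, the CCAAT box was in 16 of 19 promoters of mitotic genes and 9 of 13 of replication and deoxynucleotide genes, while E2F-type letters were in 1 and in 4 of these promoters. Such a match is a description of letters and not a site shown to be bound. To show both patterns, 2 mitotic genes (cyclin B2 and polo-like kinase 1) and 2 replication genes (an MCM subunit and the ribonucleotide reductase subunit Rrm2) are printed 5′ to 3′ along the coding strand, with the searched letters in capitals.
Ccnb2, chr9:70421555-70421804, minus strand: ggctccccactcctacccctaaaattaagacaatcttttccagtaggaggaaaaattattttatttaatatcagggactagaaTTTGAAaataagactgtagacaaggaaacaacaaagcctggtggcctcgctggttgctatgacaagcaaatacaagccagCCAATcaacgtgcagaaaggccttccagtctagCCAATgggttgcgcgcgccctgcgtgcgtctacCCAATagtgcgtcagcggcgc
Plk1, chr7:122159185-122159434, plus strand: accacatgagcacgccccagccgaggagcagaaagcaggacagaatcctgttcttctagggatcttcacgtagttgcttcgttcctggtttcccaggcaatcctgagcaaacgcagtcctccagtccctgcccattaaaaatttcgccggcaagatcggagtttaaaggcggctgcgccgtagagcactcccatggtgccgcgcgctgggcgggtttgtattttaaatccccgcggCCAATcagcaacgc
Mcm6, chr1:128359706-128359955, minus strand: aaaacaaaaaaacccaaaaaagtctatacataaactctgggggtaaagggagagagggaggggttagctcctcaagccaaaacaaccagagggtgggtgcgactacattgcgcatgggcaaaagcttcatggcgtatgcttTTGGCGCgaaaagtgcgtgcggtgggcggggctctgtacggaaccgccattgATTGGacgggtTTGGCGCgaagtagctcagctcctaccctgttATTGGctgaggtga
Rrm2, chr12:24708004-24708253, plus strand: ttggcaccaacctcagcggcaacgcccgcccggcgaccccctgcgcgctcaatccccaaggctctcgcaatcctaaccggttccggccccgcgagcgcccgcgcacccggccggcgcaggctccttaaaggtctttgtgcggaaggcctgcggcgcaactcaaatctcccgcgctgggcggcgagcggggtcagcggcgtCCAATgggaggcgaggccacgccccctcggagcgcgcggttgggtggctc
In these windows Ccnb2 holds 1 TTTGAA and 3 CCAAT boxes, Plk1 1 CCAAT box close to the start, Mcm6 the E2F-type letters TTGGCGC 2 times with 2 CCAAT boxes on the other strand, and Rrm2 1 CCAAT box.

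Control white and brown fat were compared first, since they show where these genes are active without an inhibitor. Cell cycle genes were higher in WAT: 25 of the 44 members tested were higher and 0 lower at an adjusted p under 0.05 in limma, a linear model fitted across all genes on log2(normalized reads + 1), on reads of both tissues scaled together, where 22.1% of all 16818 genes were higher and 19.9% lower. The median log2 difference of the 44 members was 1.59, against 0.08 over all genes tested, and 42 of 44 were above 0, all but Cdc45 and Ube2c, whose sign turned when libraries were scaled to their totals. Melk had a mean under 10 and was not tested. Ccnb1, Bub1, Pbk, Cenpf and Hmmr had a mean under 10 in BAT and entered the test through WAT alone; of the 39 members with a mean of at least 10 in each tissue, 21 were higher and 0 lower, where 20.9% of such genes were higher, and their median was 1.49. No library overlap between tissues was seen for 15 of these 39, all with WAT above, where WAT lay wholly above BAT for 20.0% of such genes and 21.4% of all genes tested.

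Both genes of the mitotic chromosome were higher in WAT. Mki67 (ENSMUSG00000031004, chr7:135689784-135716361, minus strand), which encodes the Ki-67 coat of mitotic chromosomes, had 143, 503, 139 and 487 in WAT, against 48.4, 37.1, 62.8 and 17.7 in BAT (log2 difference 2.77, SE 0.54, adjusted p = 0.003 in limma). Top2a (chr11:98992943-99024189, minus strand), the topoisomerase that untangles sister chromatids, had 152, 457, 119 and 450.5 in WAT, against 32.3, 16.6, 67.1 and 16.3 in BAT (log2 difference 3.11, SE 0.58, adjusted p = 0.0024). Every WAT library lay above every BAT library for both, and within WAT libraries 2 and 4 lay far above 1 and 3. Among transcription factors E2f1 (chr2:154559407-154569892, minus strand), which drives replication genes, had 162, 117, 141 and 233 in WAT, against 27.3, 14.1, 38.5 and 10.3 in BAT (log2 difference 2.93, SE 0.42, adjusted p = 0.000468), without overlap. Foxm1, which drives mitotic genes, had 33.4, 259, 27.9 and 126 in WAT, against 18.6, 15.4, 42.8 and 13.3 in BAT and did not pass (log2 difference 1.84, SE 0.71, adjusted p = 0.0618), with WAT libraries 1 and 3 inside the range of BAT.

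Of the cyclin and kinase genes 1 of 6 passed. Cdk1, the kinase that starts mitosis, had 20.9, 90.1, 43.4 and 149 in WAT, against 14.9, 2.56, 17.1 and 5.91 in BAT (log2 difference 2.72, SE 0.70, adjusted p = 0.0116), without overlap. Ccnb1, its cyclin partner, had 17.7, 32.1, 17.1 and 14.4 in WAT, against 11.2, 1.28, 12.8 and 1.48 in BAT and did not pass (log2 difference 1.87, SE 0.74, adjusted p = 0.067), although the lowest WAT library was just above the highest BAT library. Ccne1 and Ccne2, the cyclins of entry into DNA synthesis, had means of 79.1 ± 41.5 and 96.7 ± 24.3 in WAT, against 63.3 ± 16.6 and 58.6 ± 27.9 in BAT, and overlapped. Ccna2 and Ccnb2, the cyclins of DNA synthesis and of mitosis, had log2 differences of 1.53 and 1.71 and did not pass (adjusted p = 0.0659 and 0.0829 in limma).

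Of the 11 replication genes 7 passed, with a median log2 difference of 0.80 over the 11. Mcm5 had 125, 169, 75.2 and 211 in WAT, against 24.8, 60.1, 85.7 and 31.04 in BAT (log2 difference 1.58, SE 0.44, adjusted p = 0.0172). Mcm6 had 289.7, 365, 274 and 374 in WAT, against 137, 191, 174 and 115 in BAT (log2 difference 1.09, SE 0.21, adjusted p = 0.00223), and Mcm7 (chr5:138164583-138172422, minus strand) had 441, 517, 455 and 577 in WAT, against 212, 214, 284 and 254 in BAT (log2 difference 1.04, SE 0.16, adjusted p = 0.000696). For Mcm6 and Mcm7 all WAT libraries were above all BAT libraries, while for Mcm5 WAT library 3 lay inside the BAT range. Mcm2, of the same ring, had 115, 141, 66.7 and 186 in WAT, against 84.4, 76.8, 98.5 and 59.1 in BAT and did not pass (log2 difference 0.60, SE 0.32, adjusted p = 0.161). Pcna had 385, 467, 423 and 489 in WAT, against 312, 324, 317 and 355 in BAT (log2 difference 0.43, SE 0.14, adjusted p = 0.0293), a difference without overlap. Mcm3, Mcm4 and Cdt1 passed with log2 differences of 1.33, 0.80 and 1.36, while Mcm10 and Cdc6, a loader of the helicase, had 0.60 and 0.41 and did not pass. Cdc45 had 178, 130.4, 104 and 209 in WAT, against 137, 179, 201 and 266 in BAT and did not pass (log2 difference -0.34, SE 0.27, adjusted p = 0.341, and 0.18 with libraries scaled to their totals). Of the 3 deoxynucleotide genes none passed; Rrm2 had 43.2, 75.8, 49.6 and 222 in WAT, against 45.9, 23.04, 37.1 and 31.04 in BAT (log2 difference 1.20, SE 0.49, adjusted p = 0.0761), with WAT library 4 far above the other 7 libraries.

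Checkpoint and spindle genes were higher in WAT for the most part. Cdc20, an activator of the anaphase-promoting complex, had 25.5, 152, 34.1 and 94.2 in WAT, against 11.2, 7.68, 28.6 and 10.3 in BAT (log2 difference 2.15, SE 0.62, adjusted p = 0.0187), with WAT library 1 inside the BAT range. Cenpf, a protein of the kinetochore, had 53.6, 234, 48.1 and 105 in WAT, against 9.93, 11.5, 11.4 and 2.96 in BAT (log2 difference 3.32, SE 0.58, adjusted p = 0.00147 in limma), the highest log2 difference of the 44, with a BAT mean under 10. Cenpe, the motor of the kinetochore, had 46.4, 209.6, 39.6 and 112 in WAT, against 7.45, 8.96, 19.99 and 5.91 in BAT (log2 difference 2.97, SE 0.58, adjusted p = 0.00271). For both, all WAT libraries were above all BAT libraries. The kinase Aurkb, of the chromosomal passenger complex, had 26.2, 49.8, 14.7 and 62.8 in WAT, against 12.4, 8.96, 21.4 and 10.3 in BAT and did not pass (log2 difference 1.34, SE 0.51, adjusted p = 0.0605). Ube2c, the ubiquitin-conjugating enzyme of the anaphase-promoting complex, had 37.9, 65.5, 19.4 and 124 in WAT, against 160.2, 109, 55.7 and 11.8 in BAT (log2 difference -0.24, SE 0.82, adjusted p = 0.8293), and its BAT level was highest in libraries 1 and 2, the ones high in muscle genes. Without them its log2 difference was 0.91, and scaled to library totals 0.27. Of 9 kinesin, centromere and spindle genes 7 passed, of 4 checkpoint genes 3, of 5 mitotic kinase genes tested 2 (Plk1 and Pbk), and both cytokinesis genes, Racgap1 and Ect2. Among members with a mean of at least 10 in each tissue, which leaves out Cenpf, Hmmr, Bub1 and Pbk, 5 of 7, 2 of 3 and 1 of 4 of the first 3 roles passed. Members of these roles not named above that passed had log2 differences from 1.49 (Bub1b) to 3.13 (Bub1, tested through WAT alone), and those that did not pass, Birc5, Aurka, Kif11 and Kif20a, from 1.003 (Aurka) to 1.95 (Birc5).

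**Figure D2:**
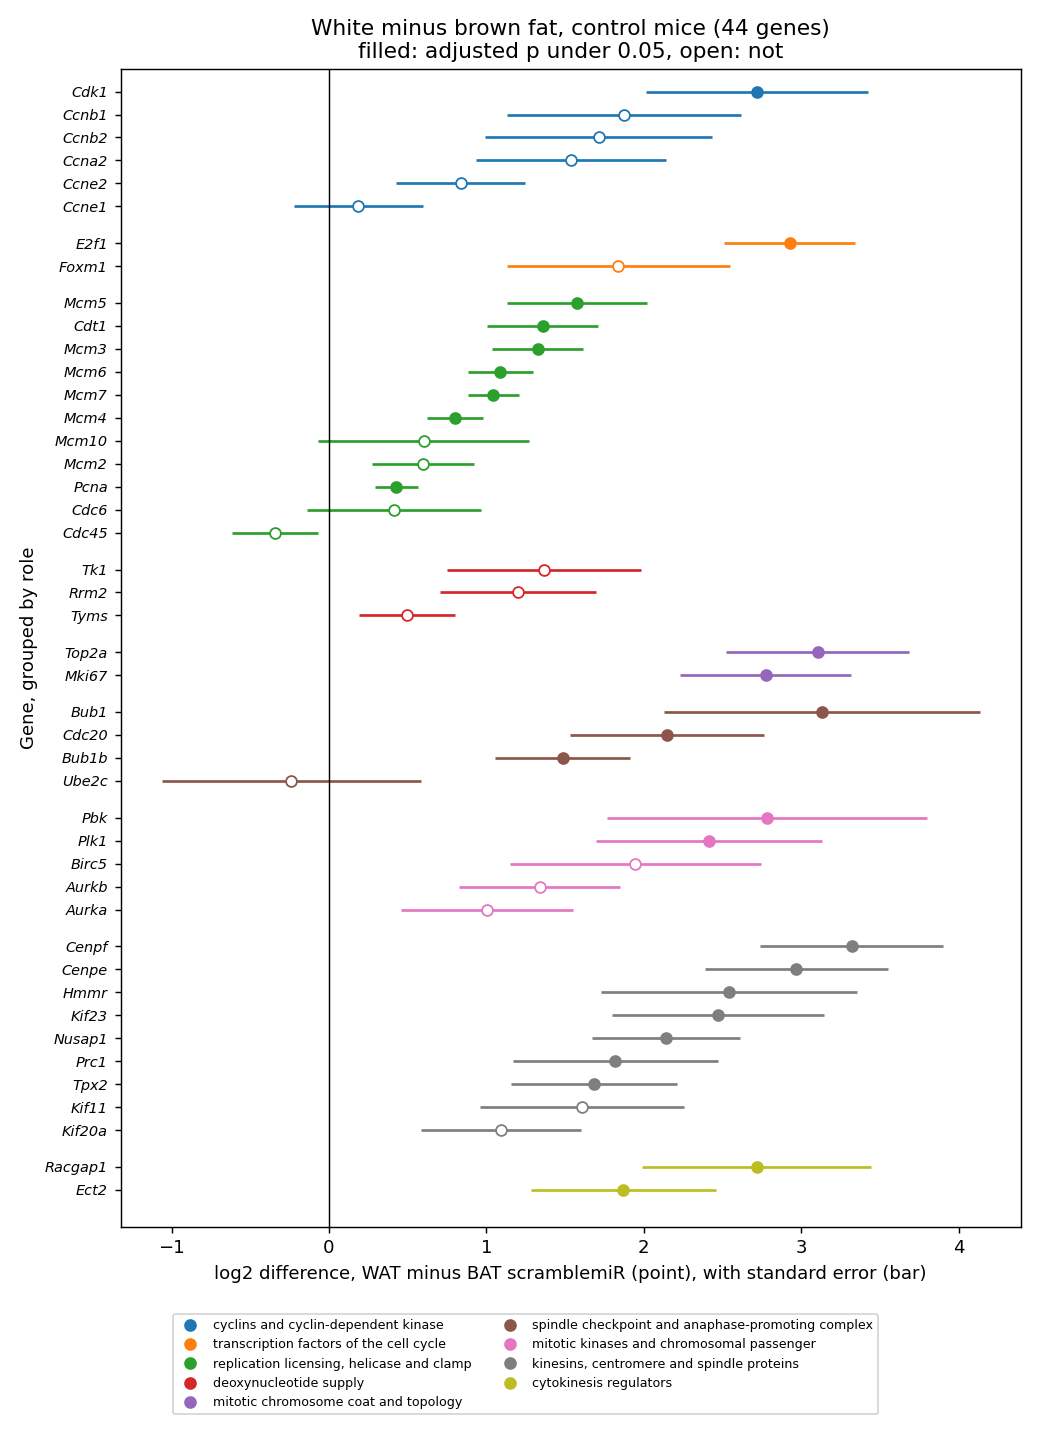
Points give the limma log2 difference of WAT scramblemiR minus BAT scramblemiR for 44 genes, ordered within each role, with bars of 1 standard error; filled points have an adjusted p under 0.05. All but Cdc45 and Ube2c, whose signs turn with libraries scaled to their totals, lie right of 0, and replication genes lie between -0.34 and 1.58.

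The count of 25 depends on single libraries. Without WAT scramblemiR library 4 it was 15, and without the BAT libraries 1 and 2, high in muscle genes, 15 again; without these and WAT library 2, high in spermatid genes, it was 9. The median log2 difference was 1.34, 1.51 and 1.27 in these fits. Calls over all genes fell as well when 1 library was left out, to between 5919 and 6719, from 7067 of 16818 with all libraries. Calls over all genes without the muscle libraries are not given, so the member counts of those fits have no background. Pcna lost its call without any of 6 of the 8 libraries, at log2 differences of 0.38 to 0.44, and Cdc20 without WAT library 4 or BAT library 2, at 1.93 each. Of the genes named by rule, Mcm5, Cdc20 and Pcna lost theirs without the muscle libraries, at 1.37, 1.73 and 0.39, and Cdk1 did without WAT library 2 as well, at 2.24. Ccnb1 passed without BAT library 1 or 3, Aurkb without BAT library 3 or WAT library 3, and Mcm2 without WAT library 3. Lymphocyte genes moved with the tissue: Ighm, the heavy chain of IgM, had 4339.6, 95859.9, 1792 and 3750.4 in WAT, against 199.9, 495, 163 and 99.05 in BAT. The 8 B lymphocyte markers were all listed. In WAT 7 were recovered, without Ighm, and summed to 89.6 to 2319 on the scale of its own tables. In BAT all 8 were recovered, with Ighm, and summed to 82.6 to 389.8 on the scale of its own tables. These sums hold unlike genes and cannot be compared between tissues. The 10 T lymphocyte markers, all recovered, summed to 768 to 2081 in WAT, against 125 to 256 in BAT. Adgre1, the macrophage marker F4/80, had 577, 569, 461 and 344 in WAT, against 156, 106, 311 and 66.5 in BAT, with no overlap. Of 15 macrophage markers 6 were recovered in WAT and 14 in BAT, so sums were not compared. Prm1, Prm2, Tnp1 and Ldhc, defining genes of male germ cells, were at 0 in all 4 BAT scramblemiR libraries. The part of these cells in the difference was not tested. Scaling to library totals moved the median of all genes to 0.61, and then 39 of 45 members passed and 81.5% of calls over all genes were higher in WAT, against 52.6% with the main scaling. Relative to the median of all genes, the members' median was 1.501 under library totals and 1.516 under the main scaling.

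Other genes of these processes, on the main scaling, were as follows. Of 37 further mitosis genes tested in limma 19 were higher and 1 lower in WAT, with a median log2 difference of 1.80, and of 34 further replication genes 9 were higher and 4 lower, with a median of 0.46, where 22.1% and 19.9% of all genes were higher and lower. Anln, the scaffold of the cytokinetic ring, averaged 453 in WAT and 59.8 in BAT (log2 difference 2.92, SE 0.29, adjusted p = 6.55e-05). Gmnn, the inhibitor that blocks a second round of licensing, averaged 56.8 in WAT and 423 in BAT (log2 difference -2.92, SE 0.25, adjusted p = 3.46e-05). Of 28 G1 cyclins, kinases and pocket proteins 5 were higher and 5 lower, and of 16 cyclin-dependent kinase inhibitors and p53 arrest genes 1 was higher and 5 were lower. Cdkn2b, the inhibitor p15, averaged 184 in WAT and 16.2 in BAT (log2 difference 3.49, SE 0.33, adjusted p = 5.33e-05), and Cdkn1a, the inhibitor p21, 1009 in WAT and 4068 in BAT (log2 difference -2.08, SE 0.31, adjusted p = 0.000573).

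The 4 WAT scramblemiR libraries did not share 1 level of these genes. The geometric mean of the 45 was 68.1, 163, 62.01 and 171 normalized reads in libraries 1 to 4, and 38 of the 45 genes had libraries 2 and 4 both above 1 and 3, an order that 19.2% of 17773 genes with a mean of at least 10 shared. This pattern was noticed in the data, so it is given without a test. Libraries 2 and 4 differed from each other by role. All 3 deoxynucleotide genes and 10 of 11 replication genes were higher in library 4, whereas 7 of 9 kinesin and spindle genes and 3 of 4 checkpoint genes were higher in library 2. The median log2 ratio of library 2 over library 4 was -1.24 for deoxynucleotide, -0.30 for replication, 0.08 for kinesin and spindle, and 0.38 for checkpoint genes. Several ratios in these counts were near 0, with Mcm6 at -0.01, Pcna -0.04, Tpx2 0.02, Kif23 0.06 and Nusap1 0.08. This sets 1 library against 1, and the share of all genes higher in either is not given. The contrast by role thus has no background. Rrm2 had 58.4, 104, 66.7 and 301 and Ccna2 (cyclin A2, of DNA synthesis) 65.5, 129.7, 70.9 and 322 in libraries 1 to 4, so library 4 stood alone. Ccnb2 (cyclin B2) had 26.5, 281, 37.5 and 141, Bub1 (a checkpoint kinase) 14.2, 141, 15.6 and 43.6 and Foxm1 45.1, 356, 37.5 and 171, each highest in library 2.

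**Figure D3:**
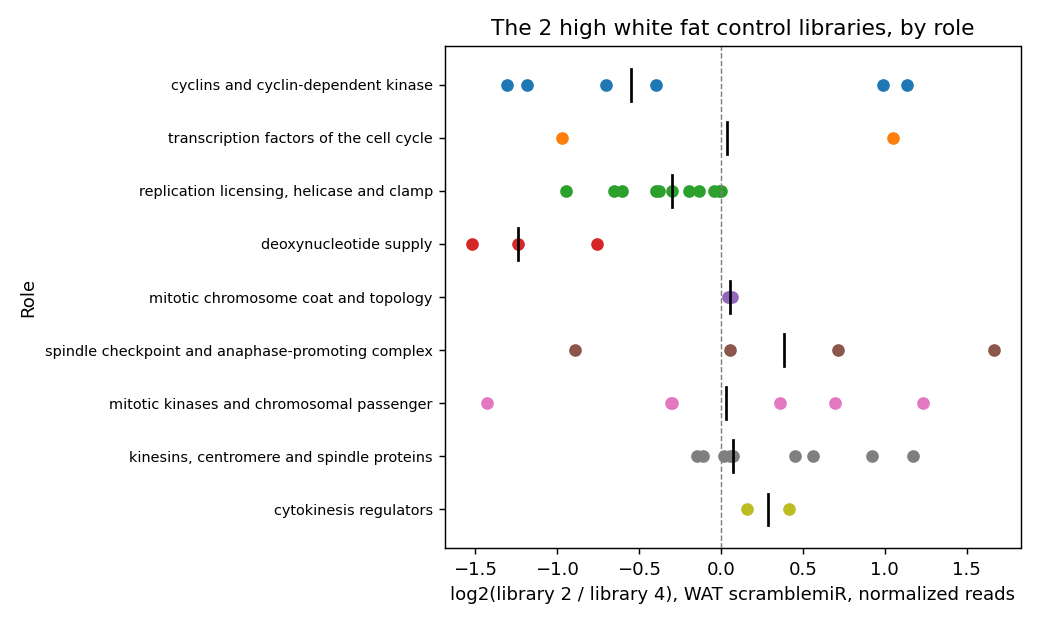
Points give the log2 ratio of WAT scramblemiR library 2 over library 4 for each of the 45 genes, in a row for each role, with the median of the role as a bar. Deoxynucleotide and replication genes lie left of 0 or at it (Mcm3, 0.00), and checkpoint, kinesin and cytokinesis genes lie mostly right of it.

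Some markers of other cells separated the 2 high libraries, and others were high in both. Summed over the 11 of 12 spermatid genes recovered in all WAT libraries, library 2 held 28925 and library 4 80.4 normalized reads. The sum of all 12 meiotic germ cell genes was 8619.9 in library 2 and 541 in library 4, that of 7 of 8 B lymphocyte genes 2319 and 89.6, and that of 10 T lymphocyte genes 2081 and 920.0. In libraries 1 and 3 the sums were 30.97 and 28.1 for spermatid, 394 and 209.5 for B lymphocyte and 864 and 768 for T lymphocyte genes. Library 2 was high in cell cycle, germ cell and lymphocyte genes. Library 4 was high in cell cycle genes and lowest in the sum of 7 B lymphocyte genes, which leaves out Ighm. Ighm itself was lowest in library 3, at 1792 against 3750.4 in library 4, with both tissues on one scale. Library 4 held 920.0 reads of 10 T lymphocyte genes, above the 864 and 768 of libraries 1 and 3 and below the 2081 of library 2. Its brown adipocyte genes, 10 of 10 recovered, summed to 3271, the highest of the 4, against 956 to 2035 in the others. By the geometric mean of the same 10 genes library 1 was highest, with 132.6, 33.4, 35.1 and 113.7 in libraries 1 to 4. Of 5 epithelium genes recovered of 8 library 4 held 942 reads, against 204 to 333 in the other 3. By geometric mean, further lists had libraries 2 and 4 both above 1 and 3, as most of the 45 genes did. Motile cilium genes, 15 of 16 recovered, had 11.8, 124, 4.69 and 63.3 in libraries 1 to 4. Transporting tubule genes, 9 of 12 recovered, had 3.48, 14.6, 2.98 and 15.1, and the 10 T lymphocyte genes 23.5, 76.2, 14.6 and 35.3. B lymphocyte and brown adipocyte genes, among others, did not share this order. The part of these cells in the levels of the 45 genes was not tested.

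**Figure D4:**
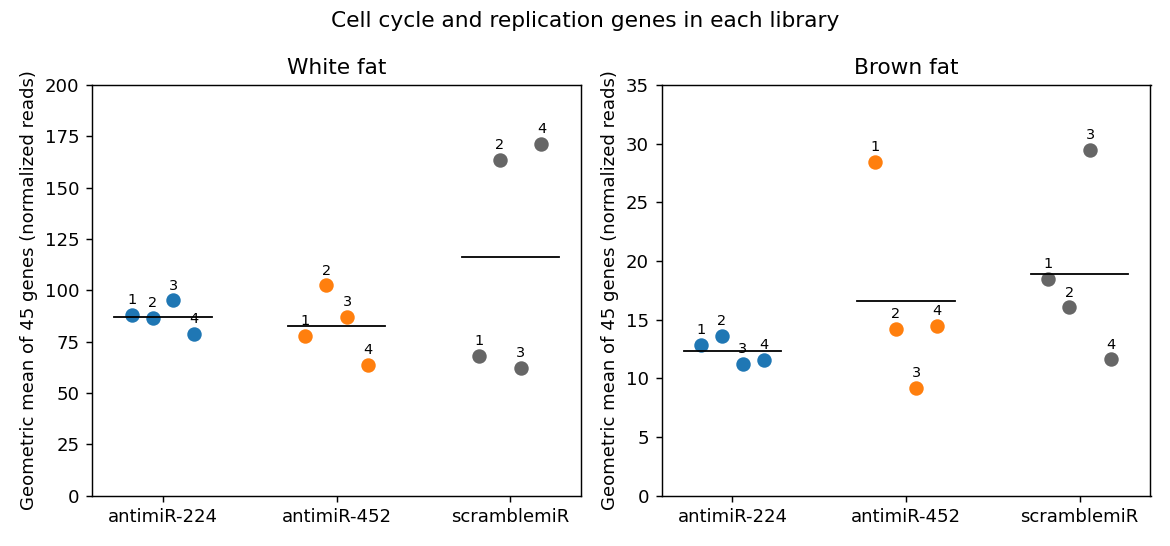
Points give the geometric mean of the 45 genes in each library, from normalized reads plus 1 with the 1 taken off again, numbered by library, and lines the mean of 4 libraries; WAT and BAT have separate vertical axes starting at 0. In WAT the 8 inhibitor libraries lie from 63.8 to 102, between scramblemiR libraries 3 at 62.0 and 2 at 163, and in BAT antimiR-452 library 1 and scramblemiR library 3 stand highest.

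The inhibitors target miR-224 and miR-452, whose genes lie next to each other on chromosome X. The labels do not say which arm of each microRNA the oligonucleotides bind, so both mature arms are printed from RefSeq (GRCm38.p6), 5′ to 3′, with the seed, bases 2 to 8, in capitals; the 4 seeds differ from each other.
mmu-miR-224-5p, chrX:72261085-72261105, minus strand: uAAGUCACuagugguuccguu
mmu-miR-224-3p, chrX:72261037-72261058, minus strand: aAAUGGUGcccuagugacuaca
mmu-miR-452-5p, chrX:72262271-72262292, minus strand: uGUUUGCAgaggaaacugagac
mmu-miR-452-3p, chrX:72262235-72262256, minus strand: uCAGUCUCaucugcaaagaggu
The complement of a seed was looked for in the annotated 3′ untranslated region (UTR) of each gene (GENCODE vM21, GRCm38, the transcript with the longest coding sequence). The letters for miR-224-5p, GTGACTT, were in 7 of 45 members (15.6%), against 11.9% of 18335 genes: Ccnb1, Ccne2, Cdc6, Cenpe, Ect2, Kif23 and Tyms. Those for miR-452-5p, TGCAAAC, were in 6 members (13.3%), against 8.84% of genes: Aurka, Cdk1, Cenpf, Kif11, Mcm2 and Mcm5. The 3p arms matched 3 members (6.67%, miR-224-3p, against 8.09% of genes) and 2 members (4.44%, miR-452-3p, against 11.8%). Stretches of 4 such 3′ UTRs, with the seed match in capitals, show the context.
Ccne2 (mmu-miR-224-5p), chr4:11203348-11203376, plus strand: tgtttacaaagGTGACTTcactcccaagg
Cenpe (mmu-miR-224-5p), chr3:135273400-135273428, plus strand: gattgattgcaGTGACTTagaacgctggt
Cdk1 (mmu-miR-452-5p), chr10:69336300-69336328, minus strand: catttcataacTGCAAACttacagttagg
Cenpf (mmu-miR-452-5p), chr1:189642431-189642459, minus strand: atatgtaagacTGCAAACgttgaaagcac
A seed match is no evidence that the microRNA acts on the transcript. In the authors' deposited table for WAT with antimiR-224, the 7 members with a miR-224-5p match had log2 ratios from -0.77 to -0.13, all below 0, with a median of -0.46. Of the other 38 only 4 were above 0, with a median of -0.50, so members with and without a match were alike. In the authors' deposited table for BAT with antimiR-452, the 6 with a miR-452-5p match had ratios from -0.71 to 0.70 with 5 above 0, and a median of 0.24. Of the other 39, 19 were above 0, with a median of -0.04. For Aurka, Cdk1, Cenpf, Kif11 and Mcm2, antimiR-452 library 1 was the highest of its group in BAT, for Mcm2 at 220.2 against 63.1 in the next. For Mcm5 it was the lowest. The ratios of Mcm2, Aurka and Cenpf thus lean on a single library, at 64.3 against 18.6 in the next for Aurka and 20.6 against 7.77 for Cenpf. This does not hold for Mcm5, which was above 0 with library 1 lowest. For Cdk1 library 1, at 16.3, was close to library 3, at 14.04. Kif11 was the member below 0, although library 1 was its highest. The medians of members with a match were -0.13 for antimiR-224 in BAT and -0.30 for antimiR-452 in WAT, against -0.57 and -0.55 for members without one, also from the authors' deposited tables.

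In WAT antimiR-224 changed no member past the threshold. Of the 45, 41 had a log2 ratio below 0 in the authors' deposited table, with a median of -0.50, where 53.5% of all genes with a finite ratio were below 0 and the median was -0.03. None passed an adjusted p of 0.05 there, as against 0.00343% of 29128 genes, and 0 of the 45 had an unadjusted p under 0.05, against 1.55% of genes. Limma on the recovered reads called 0 of 45 members and 0.0% of 15154 genes; 3 members, Cdc45, Ccne2 and Ccne1, had an unadjusted p under 0.05, all lower, against 2.8% of genes in that direction. On the log scale of that fit the median of the 45 was -0.22, with 11 above 0, against 0.02 over all genes tested. For 0 of the 45 did the antimiR-224 libraries lie wholly above or wholly below the scramblemiR libraries, against 1.72% and 1.8% of genes tested.

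The proliferation marker genes had the smallest and the fourth smallest p among the 45 members in this table. Mki67 had 310.4, 218, 275 and 184 with antimiR-224, 84.2, 512, 263 and 154 with antimiR-452, against 193, 692, 187 and 659 with scramblemiR. Top2a had 246, 202, 363 and 225 with antimiR-224, 209.8, 309, 239.7 and 159.9 with antimiR-452, against 205, 629.6, 159 and 609.9 with scramblemiR. In both genes every antimiR-224 library lay far below scramblemiR libraries 2 and 4 and near or above libraries 1 and 3. For antimiR-224 the authors' deposited table gives Mki67 means of 247 with antimiR-224 and 433 with scramblemiR (log2 ratio -0.81, unadjusted p = 0.22), and Top2a means of 259 with antimiR-224 and 401 with scramblemiR (log2 ratio -0.63, unadjusted p = 0.293), each with an adjusted p of 1. Ccne1 had 52.3, 37.9, 41.5 and 64.3 with antimiR-224, 48.9, 68.5, 101 and 54.4 with antimiR-452, against 143, 72.4, 47.95 and 165 with scramblemiR (log2 ratio -1.13, unadjusted p = 0.251 for antimiR-224 in the authors' deposited table). Bub1 had 20.9, 10.7, 32.7 and 18.8 with antimiR-224, 11.8, 34.2, 22.2 and 2.22 with antimiR-452, against 14.2, 141, 15.6 and 43.6 with scramblemiR (log2 ratio -1.37, unadjusted p = 0.278 for antimiR-224 in the authors' deposited table). For Ccne1 libraries 1 and 4 of the controls were the high ones, and for Bub1 library 2. Ccne2 had 74.1, 64.1, 94.9 and 94.2 with antimiR-224, 31.2, 83.7, 91.9 and 82.2 with antimiR-452, against 157, 120.3, 89.6 and 159 with scramblemiR (limma log2 change -0.66, SE 0.26, adjusted p = 0.828 for antimiR-224). Cdc45 had 128, 118, 117 and 158 with antimiR-224, 137, 136, 190.0 and 149.9 with antimiR-452, against 241, 179, 139.7 and 283 with scramblemiR (limma log2 change -0.65, SE 0.24, adjusted p = 0.828 for antimiR-224). For both, scramblemiR libraries 1, 2 and 4 lay above every antimiR-224 library and library 3 within their range. The members with the highest ratios, Cdt1 (which loads the MCM ring) and Mcm4, were at 0.18 and 0.13 on the log2 scale of the authors' deposited table.

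With antimiR-452 in WAT the same 4 controls were used, so both sets of ratios share them. Here 40 of 45 members had a log2 ratio below 0 in the authors' deposited table, with a median of -0.55, where 56.1% of genes were below 0 and the median was -0.05. No member passed (0.0% of 29079 genes did), and 0 of 45 had an unadjusted p under 0.05, against 2.41% of genes. Limma called 0 of 45 members and 0.0% of 14453 genes, with only Ccne2 at an unadjusted p under 0.05, lower, against 0.851% of genes. The 2 smallest p-values among the 45 members belonged to kinetochore genes. Cenpe had 61.9, 66.1, 129.8 and 93.1 with antimiR-224, 20.2, 82.7, 65.5 and 56.6 with antimiR-452, against 62.8, 288, 53.2 and 152 with scramblemiR (log2 ratio -1.32, unadjusted p = 0.13 for antimiR-452 in the authors' deposited table). Cenpf had 108, 59.3, 144 and 79.8 with antimiR-224, 16.01, 119, 65.5 and 45.5 with antimiR-452, against 72.6, 322, 64.6 and 142 with scramblemiR (log2 ratio -1.30, unadjusted p = 0.143 there). Ccnb2 had 53.2, 56.3, 81.8 and 48.8 with antimiR-224, 40.4, 48.5, 42.2 and 16.7 with antimiR-452, against 26.5, 281, 37.5 and 141 with scramblemiR (log2 ratio -1.73, unadjusted p = 0.146 there). In all 3, library 2 and to a lesser degree library 4 of scramblemiR stood above every antimiR-452 library, and libraries 1 and 3 lay within their range.

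Replication genes of WAT gave ratios on both sides of 0 with each inhibitor. Mcm2 had 223, 245, 143 and 143 with antimiR-224, 217, 201, 223.8 and 119 with antimiR-452, against 156, 194, 89.6 and 252 with scramblemiR. Mcm5 had 219.7, 233, 137 and 172 with antimiR-224, 203, 230.1, 213 and 102 with antimiR-452, against 169, 232, 101 and 286 with scramblemiR, and Pcna had 598, 611, 555 and 595 with antimiR-224, 438, 619, 495 and 562 with antimiR-452, against 521, 643, 568 and 662 with scramblemiR. The groups overlapped for each, and the median log2 ratio of the 11 replication members was -0.05 with antimiR-224 and -0.12 with antimiR-452 in the authors' deposited tables. Cdk1 had 69.7, 92.3, 74.2 and 55.4 with antimiR-224, 71.6, 112, 90.8 and 43.3 with antimiR-452, against 28.3, 124, 58.4 and 202 with scramblemiR, and Ccnb1 had 15.7, 11.7, 17.5 and 19.95 with antimiR-224, 24.4, 15.2, 6.33 and 29.97 with antimiR-452, against 23.9, 44.2, 22.9 and 19.5 with scramblemiR. Both were highest in a scramblemiR library, Cdk1 in library 4 and Ccnb1 in library 2. Rrm2 had 86.3, 106, 55.6 and 74.3 with antimiR-224, 89.3, 131, 73.9 and 67.7 with antimiR-452, against 58.4, 104, 66.7 and 301 with scramblemiR. Cdc20 had 68, 61.2, 127 and 41.01 with antimiR-224, 77.5, 44.7, 63.3 and 42.2 with antimiR-452, against 34.5, 209.6, 45.9 and 127 with scramblemiR. Aurkb had 64.5, 41.8, 44.7 and 46.6 with antimiR-224, 53.1, 47.5, 51.7 and 37.7 with antimiR-452, against 35.4, 68.6, 19.8 and 85 with scramblemiR. These 3 genes also had their highest value of the 12 libraries in scramblemiR library 2 or 4. Melk and Mcm6 had the highest ratios with antimiR-452, 0.29 and 0.17, and Bub1 a ratio of -1.62, the lowest but Ccnb2, in the authors' deposited table.

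The antimiR-224 median changed sign with the control libraries used, while the antimiR-452 median changed in size and stayed below 0 in every fit without 1 library. In limma the median of the 45 for antimiR-224 was -0.22 with all libraries, 0.02 without scramblemiR library 2, 0.01 without library 4, -0.55 without library 1 and -0.51 without library 3, and -0.22 to -0.27 without any 1 antimiR-224 library. For antimiR-452 it was -0.34, and -0.10, -0.07, -0.52 and -0.61 in the same order, and -0.23 to -0.44 without any 1 antimiR-452 library. Markers of other cells differed between these groups too. Spermatid genes, 11 of 12 recovered, summed to 323 to 8201 with antimiR-224, 12.2 to 712 with antimiR-452 and 28.1 to 28925 with scramblemiR. Motile cilium genes, 15 of 16 recovered, summed to 539 to 10217, 312 to 8149 and 342 to 5129 in the same groups. B lymphocyte genes, 7 of 8 recovered and without Ighm, summed to 328 to 909.7, 132 to 2402 and 89.6 to 2319. The part of these cells in the ratios was not tested beyond the fits that follow. Without scramblemiR library 2 and antimiR-224 libraries 3 and 4, the 3 highest in spermatid genes, the median of the members was 0.01 and 0 passed, while 1247 of all genes did. The antimiR-224 libraries left, 1 and 2, had motile cilium genes at geometric means of 470 and 581. ScramblemiR libraries 1, 3 and 4 had 11.8, 4.69 and 63.3. The part of these cells in the 1247 calls was not tested. Without antimiR-224 libraries 1 and 2, high in epithelium genes, the median of the members was -0.25 with 0 passing.

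**Figure D5:**
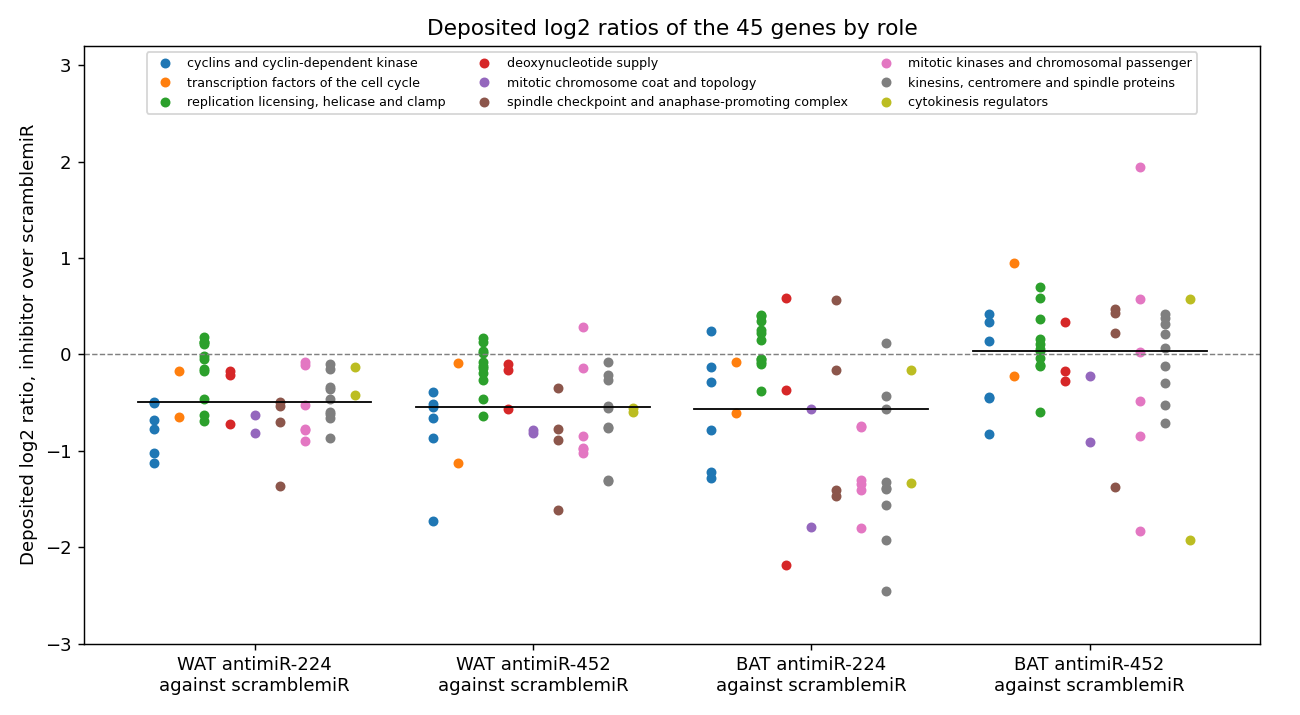
Points give the deposited log2 ratio of inhibitor over scramblemiR for the 45 genes in 4 comparisons, coloured by role, with the median of the 45 as a line. Most points lie below 0 in both WAT comparisons and in BAT with antimiR-224, where replication genes lie on both sides of 0, and the points of BAT with antimiR-452 are spread about 0.

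In BAT these genes were scarce, with few reads behind many ratios. With antimiR-224, 35 of 45 members had a log2 ratio below 0 in the authors' deposited table, with a median of -0.56, where 54.8% of genes were below 0 and the median was -0.05. None passed an adjusted p of 0.05, as did 0.0% of 24084 genes. At an unadjusted p under 0.05 stood 3 members, Kif11, Mki67 and Tk1, all lower, against 0.668% of genes in that direction. Limma tested the 31 members with a mean of at least 10 and called 0, and 0.0% of 11935 genes. It gave 4 of the 31, Mki67, Kif11, Tpx2 and Aurka, an unadjusted p under 0.05, all lower, against 2.42% of genes. The median of the 31 was -0.13, against -0.09 over all genes tested.

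Among the 45 members, Kif11 and Mki67, both mitotic genes, had the smallest p-values in the authors' deposited table. Kif11, the motor that pushes spindle poles apart, had 0.798, 6.68, 2.27 and 5.83 with antimiR-224, 32.6, 10.7, 0 and 9.30 with antimiR-452, against 36.97, 26.1, 18 and 4.35 with scramblemiR. For antimiR-224 the authors' deposited table gives log2 ratio -2.45, unadjusted p = 0.00509 (limma log2 change -2.10, SE 0.75, adjusted p = 0.745). Its scramblemiR libraries 1 to 3 lay above every antimiR-224 library, and library 4 lay within their range. Without scramblemiR library 3 or 4 the median of the members tested in this comparison was 0.04 or -0.39. Without scramblemiR libraries 1 and 2, the ones high in muscle genes, it was -0.10, and 0 members passed. The 2 brown adipocyte genes recovered of 10 had geometric means of 539, 747, 810.0 and 684 in the antimiR-224 libraries and 586, 751, 533 and 730.0 in the antimiR-452 libraries, all below the 922, 887, 1098 and 833 of scramblemiR, while the sums of these genes overlapped between inhibitors and control. The part of these genes' cells in the ratios was not tested. Mki67 had 3.19, 11.7, 6.81 and 14 with antimiR-224, 38.6, 17.5, 0 and 10.3 with antimiR-452, against 36.05, 28.05, 46.6 and 13.05 with scramblemiR (log2 ratio -1.79, unadjusted p = 0.0067 in the authors' deposited table; limma log2 change -1.71, SE 0.54, adjusted p = 0.745). Only the lowest scramblemiR library, 4, fell among the antimiR-224 libraries. Tk1, the thymidine kinase of DNA synthesis, had 3.99, 1.67, 3.40 and 0 with antimiR-224, 29.1, 0, 4.01 and 1.03 with antimiR-452, against 9.24, 10.6, 18 and 3.26 with scramblemiR (log2 ratio -2.18, unadjusted p = 0.0222 in the authors' deposited table), with a mean under 10 over both groups and so outside the limma test. Its scramblemiR library 4 lay within the antimiR-224 range. Aurka, the kinase of spindle poles, had 8.78, 8.35, 9.07 and 12.8 with antimiR-224, 64.3, 10.7, 5.02 and 18.6 with antimiR-452, against 24.96, 33.9, 28.6 and 8.70 with scramblemiR (log2 ratio -1.30, unadjusted p = 0.0523 there). For Aurka too scramblemiR library 4 was the one within that range. In each of these 4 genes antimiR-452 library 1 was the highest of its group.

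Other members gave ratios of either sign in BAT. Tyms, which makes thymidylate, had 71.1, 52.6, 88.5 and 55.99 with antimiR-224, 23.99, 89.3, 61.2 and 53.8 with antimiR-452, against 34.2, 48.4, 46.6 and 50.02 with scramblemiR (log2 ratio 0.58, unadjusted p = 0.277 for antimiR-224 in the authors' deposited table), and all 4 antimiR-224 libraries lay above all 4 scramblemiR libraries, as they did for 2.22% of genes tested. Aurkb had 2.40, 6.68, 1.13 and 1.17 with antimiR-224, 12.9, 1.94, 0 and 7.24 with antimiR-452, against 9.24, 6.77, 15.9 and 7.61 with scramblemiR (log2 ratio -1.80, unadjusted p = 0.065 there), with antimiR-224 wholly below scramblemiR, as for 1.37% of genes tested, to which Aurkb, with a mean under 10, does not belong. Bub1b, a checkpoint protein, had 39.9, 50.96, 26.1 and 55.99 with antimiR-224, 33.4, 33.02, 42.1 and 49.6 with antimiR-452, against 12.9, 32.9, 33.9 and 36.97 with scramblemiR (log2 ratio 0.57, unadjusted p = 0.305 there). Its antimiR-224 and scramblemiR libraries overlapped, with scramblemiR library 1 the lowest of the 12. Of the 11 replication members 6 were above 0 with antimiR-224, with a median of 0.15 in the authors' deposited table, and of the 9 kinesin and spindle members 8 were below 0, with a median of -1.38. All 6 mitotic kinase genes were below 0, with a median of -1.32 there.

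With antimiR-452 in BAT, which shares its 4 controls with antimiR-224, the members lay about 0. Of the 45, 24 were above 0 in the authors' deposited table, and the median was 0.03, against 0.05 over all genes, of which 45.5% were below 0. None passed (0.0% of 24248 genes did), and 0 had an unadjusted p under 0.05, against 0.499% of genes. Limma called 0 of 33 members tested and 0.0% of 12320 genes, and gave Mcm7 and E2f1 an unadjusted p under 0.05, both higher, against 2.04% of genes. Mcm7 had 212, 207, 249.5 and 246 with antimiR-224, 225, 282, 316 and 259 with antimiR-452, against 158, 162, 211 and 187 with scramblemiR (log2 ratio 0.58, unadjusted p = 0.267 for antimiR-452 in the authors' deposited table; limma log2 change 0.58, SE 0.21, adjusted p = 0.993). All 4 antimiR-452 libraries were above all 4 scramblemiR libraries, as for 1.76% of genes. E2f1 had 31.1, 5.85, 14.7 and 11.7 with antimiR-224, 42.8, 31.1, 31.1 and 24.8 with antimiR-452, against 20.3, 10.6, 28.6 and 7.61 with scramblemiR (log2 ratio 0.94, unadjusted p = 0.205 there; limma log2 change 1.04, SE 0.46, adjusted p = 0.993), and library 3 of scramblemiR fell within the antimiR-452 range. Ect2, which acts at the division furrow, had 1.60, 11.7, 0 and 2.33 with antimiR-224, 4.28, 0.971, 0 and 5.17 with antimiR-452, against 18.5, 3.87, 11.6 and 5.44 with scramblemiR (log2 ratio -1.93, unadjusted p = 0.056 there), and the groups overlapped, with a mean under 10.

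Library 1 of antimiR-452 in BAT was high for several members. Mcm2 had 67.9, 46.8, 43.1 and 24.5 with antimiR-224, 220.2, 44.7, 59.2 and 63.1 with antimiR-452, against 62.9, 58.03, 73.05 and 43.5 with scramblemiR, and antimiR-452 library 1 was about 3 times the next, scramblemiR library 3. The same library was the highest of the 12 for Ube2c, at 227, 13.6, 28.1 and 25.8 with antimiR-452, against 119, 82.2, 41.3 and 8.70 with scramblemiR, and for Tpx2, an activator of Aurka, at 60.8, 11.7, 11.03 and 10.3, against 18.5, 16.4, 32.8 and 13.05. That library also held the highest sum of 14 macrophage genes recovered of 15, 5001, against 2109 to 3881 with scramblemiR, and of 7 of 10 adipose stromal progenitor genes, 6156, against 2168 to 3769. Library 3 of scramblemiR, the highest control for Mki67, Top2a and Cdc20, held 3881 and 3769 of these 2 lists, the highest of its group. The part of macrophages and progenitors in these levels was not tested. Without antimiR-452 library 1 the median of the members tested in limma was -0.09, against -0.03 with it. Over all single libraries left out it ran from -0.17 (without scramblemiR library 4) to 0.09 (without scramblemiR library 3), and was above 0 without scramblemiR library 2 or antimiR-452 library 2, 3 or 4 as well. Without scramblemiR libraries 1 and 2, the ones high in muscle genes, it was -0.07, and 0 members passed.

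For the remaining genes named by rule, inhibitor and scramblemiR libraries overlapped in BAT. Top2a had 13.6, 21.7, 20.4 and 10.5 with antimiR-224, 52.3, 5.83, 6.02 and 20.7 with antimiR-452, against 24.03, 12.6, 49.8 and 11.96 with scramblemiR. Cdk1 had 7.98, 5.01, 2.27 and 9.33 with antimiR-224, 16.3, 5.83, 14.04 and 2.07 with antimiR-452, against 11.1, 1.93, 12.7 and 4.35 with scramblemiR. Ccnb1 had 0, 5.85, 4.54 and 1.17 with antimiR-224, 8.57, 2.91, 0 and 3.10 with antimiR-452, against 8.32, 0.967, 9.53 and 1.09 with scramblemiR. At these levels Cdk1 and Ccnb1 rest on few reads in every library. Mcm5 had 69.5, 65.2, 23.8 and 39.7 with antimiR-224, 25.7, 43.7, 71.2 and 27.9 with antimiR-452, against 18.5, 45.5, 63.5 and 22.8 with scramblemiR. Pcna had 276, 263, 296 and 243 with antimiR-224, 262, 241, 229 and 271 with antimiR-452, against 232, 245, 235 and 261 with scramblemiR. For Pcna the spread between libraries was small and the groups lay together. Rrm2 had 23.95, 12.5, 17.01 and 25.7 with antimiR-224, 53.98, 14.6, 5.02 and 17.6 with antimiR-452, against 34.2, 17.4, 27.5 and 22.8 with scramblemiR. Cdc20 had 9.58, 15.9, 1.13 and 11.7 with antimiR-224, 12, 14.6, 26.1 and 7.24 with antimiR-452, against 8.32, 5.80, 21.2 and 7.61 with scramblemiR. Ccnb2 had 10.4, 5.85, 5.67 and 2.33 with antimiR-224, 10.3, 10.7, 10.03 and 1.03 with antimiR-452, against 11.1, 6.77, 23.3 and 15.2 with scramblemiR. No inhibitor group lay wholly above or below scramblemiR for these genes. Mki67 and Ccnb2 had the lowest ratios with antimiR-452, -0.91 and -0.83 in the authors' deposited table, among members with a mean of at least 10.

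Whether the inhibitor effects differed between the 2 tissues was tested as an interaction in limma, with tissues taken as independent. The labels do not say whether both tissues came from the same mice. Some library numbers in the deposited headers recur in both tissues, each time within the same treatment. Whether these numbers stand for mice is not stated. The tissues may thus be partly paired, which the fit does not take into account. For antimiR-224, 0 of 31 members and 0.0% of 10611 genes passed, and Kif11, Mcm7 and Cdc45 had an unadjusted p under 0.05, against 8.01% of genes. Kif11 differed by 2.12 (WAT effect minus BAT effect, SE 0.86, adjusted p = 0.597 in limma). For antimiR-452, 0 of 33 members and 0.0% of 10268 genes passed, and Mcm7 and E2f1 had an unadjusted p under 0.05, against 5.56% of genes. Mcm7 differed by -0.70 (SE 0.23, adjusted p = 0.835 in limma).

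Of the other cell cycle genes none passed an adjusted p of 0.05 in any deposited table. The 42 further mitosis genes also lay mostly below 0 in WAT, with 40 below 0 under each inhibitor and medians of -0.54 (antimiR-224) and -0.55 (antimiR-452) in the authors' deposited tables. The 35 further replication genes had medians of -0.08 with each. In BAT 32 of 41 further mitosis genes were below 0 with antimiR-224 (median -0.28) and 23 of 42 with antimiR-452 (median -0.08), and further replication genes had medians of 0.11 and 0.09, from the authors' deposited tables. Among 28 G1 genes the D-type cyclin Ccnd1 averaged 1891 with antimiR-452 and 1068 with scramblemiR (log2 ratio 0.82, unadjusted p = 0.0182, adjusted p = 1) in WAT in the authors' deposited table, and its partner kinase Cdk6 759.8 with antimiR-452 and 356 with scramblemiR (log2 ratio 1.09, unadjusted p = 0.00457, adjusted p = 0.501). These were the 2 of 28 with an unadjusted p under 0.05 in that comparison, against 2.31% of genes in that direction. With antimiR-224 Cdk6 averaged 670.1 with antimiR-224 and 354 with scramblemiR (log2 ratio 0.92, unadjusted p = 0.1, adjusted p = 1) in the authors' deposited table. The inhibitor p18, Cdkn2c, averaged 2031 with antimiR-224 and 4298 with scramblemiR (log2 ratio -1.08, unadjusted p = 0.0373, adjusted p = 1) in WAT there. In BAT with antimiR-224, E2f3, a further E2F factor, averaged 101 with antimiR-224 and 211 with scramblemiR (log2 ratio -1.06, unadjusted p = 0.0146, adjusted p = 1) in the authors' deposited table.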

How the data were processed

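Messenger RNA of 24 libraries, 4 in each of 6 groups, was measured by sequencing. The 4 deposited tables, 1 for each tissue and inhibitor, hold no values of single libraries. The authors deposited for each gene the mean normalized count, a signal in reads divided by size factors, over 4 inhibitor and over 4 scramblemiR libraries, per the file headers. They also deposited the ratio of these means (a fold), its log2, an unadjusted p-value and an adjusted p-value, per the file headers. DESeq 1.10.1, R 2.15.3 and the build GRCm38.p4 are named in the submitters' processing notes; the sources used here do not give the aligner, the counter or the annotation.

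The means are printed with 15 digits, so the whole reads of each library could be solved for: 100% of scramblemiR values and 88.4% to 90.6% of inhibitor genes were recovered, and all 45 members in all 24 libraries. Recovery and tests were tested on simulated data, where no recovered value was wrong. Replicate libraries differed by more than counting noise in every group, so none was counted as a duplicate. Inhibitor totals of reads are not known in full, since some abundant genes were not recovered. The control values of a tissue are on the scale of its antimiR-224 table, from which that of the antimiR-452 table differs by at most 0.895% in WAT and 1.92% in BAT.

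The main test of an inhibitor is the deposited one, at an adjusted p of 0.05. The second is limma 3.58.1 in R 4.3.3, with trend and robust variance, on log2(normalized reads + 1) of genes with a mean of at least 10, which understates the change of low genes, with Benjamini-Hochberg adjustment over all genes tested. WAT and BAT scramblemiR libraries were compared by the same fit after joint median-of-ratios scaling, also with tissues taken as independent. No count test was a main result, since the deposited values are means. Alternatives changed the pseudocount, the minimum mean, the robust variance, the scaling and the libraries used.

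Values of each library were printed by a rule: 10 genes covering the main roles in every comparison, the 4 members with the smallest p in each deposited table, and the 2 with the highest and the 2 with the lowest ratio among those with a mean of at least 10. Other members, such as Cdc45, Ccne2, Foxm1, Ccna2, Tpx2, Ube2c, Cenpf and Cenpe between tissues, and Ube2c and Tpx2 in BAT, were chosen after their values were seen. The members and lists were chosen with earlier results of these data known. Of 16 marker lists the report gives some, chosen after their values were seen. No columns of single samples were left unused (0).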

Additional observations from a re-analysis of the deposited data

Results flagged for a closer look

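In groups of 4 libraries, a library was marked when its gap to the nearest of the others, divided by the range of the group, was above the 95% critical value of Dixon's test. This held in 3 of 86 groups tested, and chance marks about 1 in 20. Mcm2, of the MCM ring, gave 0.895 in BAT with antimiR-452, where library 1 had 220.2 normalized reads and the nearest 63.1. Bub1b, a checkpoint protein, gave 0.830 in BAT with scramblemiR, where library 1 was lowest, at 12.9, and the nearest was at 32.9. Cdc20, an activator of the anaphase-promoting complex, gave 0.836 in BAT with scramblemiR, where library 3 was highest, at 21.2, and the nearest was at 8.32.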

How the results depend on the processing

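Inhibitor comparisons called 0 members under every alternative run in limma and at an adjusted p of 0.1 in the deposited tables. The number of all genes called in WAT was 1247 with antimiR-224 without the 3 libraries high in spermatid genes. The antimiR-224 libraries left in that fit, 1 and 2, were high in epithelium and motile cilium genes. With antimiR-452 the number was 0 to 526 when 1 library was left out, the 526 without antimiR-452 library 4. The 25 members higher in WAT than in BAT became 15 with a minimum mean of 50, where fewer genes are tested, and 39 with scaling to library totals, where 81.5% of calls were higher in WAT. Leaving out 1 library gave 15 to 28 members, and 5919 to 6719 of all genes, against 7067 with all libraries. Leaving out the muscle libraries gave 15, and leaving out WAT library 2 as well gave 9. The share of all genes called is not given for these fits, the minimum mean of 50 or library totals. Whether members changed more than genes in general cannot be told from these counts. The removals of libraries named for their markers were chosen after seeing the data. Signs turned for Cdc45 (0.18 with library totals), for Ube2c (0.27 with library totals, 0.91 and 0.78 in the 2 removals, and 0.24, 0.051 and 0.197 without BAT library 1, BAT library 2 or WAT library 3, in a range of -0.98 to 0.24 over libraries left out singly) and for Ccne1 (-0.0079 and -0.076 without WAT library 1 or 4, in a range of -0.08 to 0.51). The cause was not tested. With scaling to library totals Ccnb1, Mcm2, Rrm2 and Aurkb passed as well, and with no minimum mean Pcna did not. No paired analysis was possible because the recovered libraries cannot be tied to the replicate numbers of the labels. In BAT depth limits the members with few reads, 14 of which had a mean under 10 for antimiR-224.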
